A study of Mus musculus with 4 samples.

Results

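The SMAD genes are the 8 mouse genes Smad1, Smad2, Smad3, Smad4, Smad5, Smad6, Smad7 and Smad9, taken here by name from 21887 protein-coding genes of build mm10, with the FOXL2 peaks that lay in each gene or within 50 kb of it. FOXL2, a forkhead factor, is made by granulosa cells, which surround and sustain the oocytes. Where it sits on DNA had been mapped by ChIP-seq, the sequencing of chromatin pulled down with an antibody, in XX gonads of CD1 mouse embryos at E14.5. The 2 FOXL2 ChIP samples and the 2 input samples, which are chromatin sequenced with no antibody, shared strain, stage and tissue, and the labels name no mutation or treatment. Each ChIP used a different pool of 80 to 100 ovaries, freed of the mesonephros, so the chromatin holds every cell type of the organ.

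SMAD proteins carry signals of the TGF-beta superfamily from receptors at the cell surface to the nucleus. Activin and TGF-beta receptors phosphorylate SMAD2 and SMAD3, and BMP receptors phosphorylate SMAD1, SMAD5 and SMAD9; these are the receptor-regulated SMADs. They pair with the common SMAD, SMAD4, to bind DNA together with partner factors, while the inhibitory SMADs, SMAD6 and SMAD7, block the pathway and are themselves switched on by it as negative feedback. In granulosa cells FOXL2 and SMAD3 are known to act together at the follistatin gene Fst, which encodes a secreted antagonist of activin.

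The deposited values are the positions of 11438 peaks, each 300 bp wide, in a single list for both ChIP samples, and 11435 of them lay on the chromosomes analysed. The list holds no score, height or value per replicate. The read depth is therefore unknown, no peak has a replicate error, strong and weak sites cannot be told apart, and binding too weak for the list cannot be seen. With 1 list there are no groups of samples to test, so counts and distances are given beside the same measure over all protein-coding genes, and 5, 1 and 2 genes per SMAD class allow no test between the classes. Peak positions cannot check the labelled tissue, since the list holds no expression.

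FOXL2 peaks lay at the start or a border of every receptor-regulated and common SMAD gene except Smad3, and outside the inhibitory SMAD genes at a distance. Within 1 kb of a listed transcription start, or of either end of the gene where no start was listed, a peak centre was found in 4 of 5 receptor-regulated SMAD genes (Smad1, Smad2, Smad5 and Smad9), in the common Smad4, and in 0 of 2 inhibitory SMAD genes. The 5 of 8 genes compare with 37.3% of all protein-coding genes and with 52.0% of the 5691 genes as long as the SMAD genes (28.6 to 111 kb). Of the genes with a listed start 38.4% had such a peak, and of those judged by their borders 33.3%. The split between the classes describes 8 genes that were chosen with results of these data known.

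**Figure D1:**
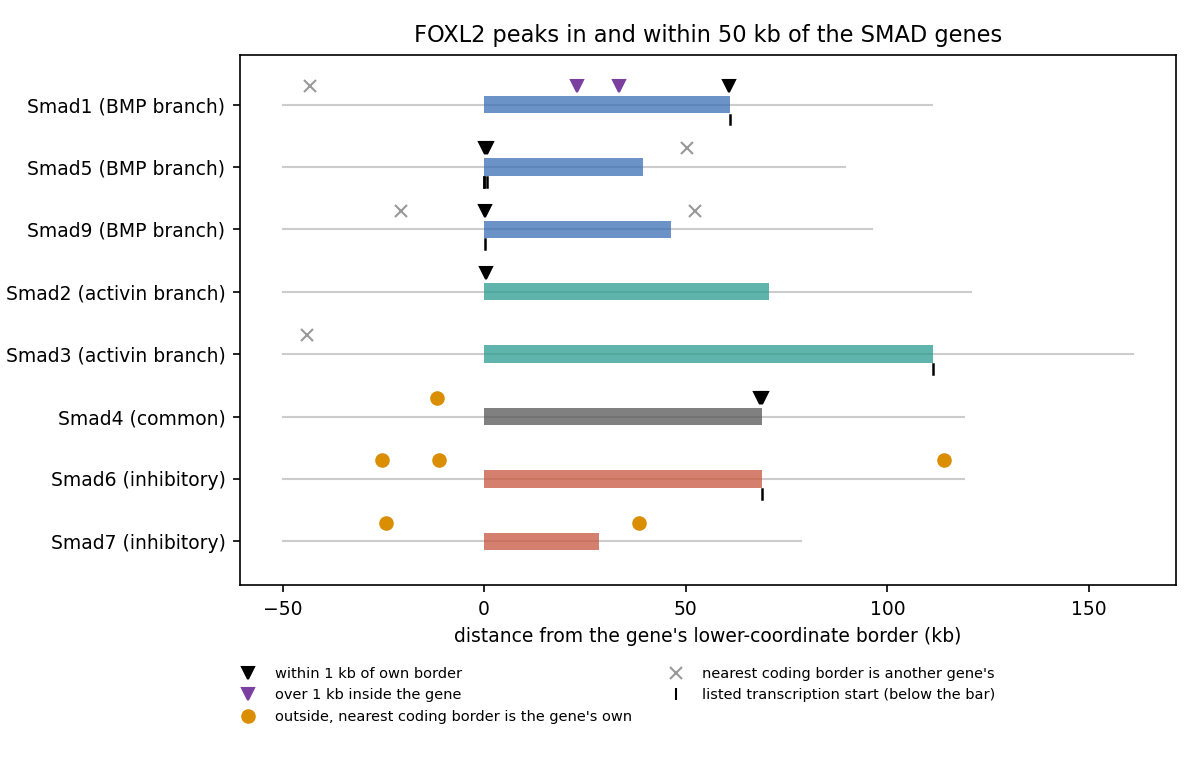
Positions of FOXL2 peak centres (symbols) along each SMAD gene (coloured bar) and 50 kb on either side (grey line), in kb from the gene's lower-coordinate border; short lines under a bar mark listed transcription starts. Black triangles sit at a border of Smad1, Smad5, Smad9, Smad2 and Smad4, whereas the 5 symbols of Smad6 and Smad7 lie outside the genes.

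The sequences before the starts are shown for Smad5, Smad9, Smad6 and Smad3. They come from RefSeq (GRCm38.p6, the assembly that mm10 denotes). Starts were listed there for 5 of the 8 genes, Smad1, Smad3, Smad5, Smad6 and Smad9. Each run holds the 250 bases before a listed start and the 10 bases from the start on, 5′ to 3′ on the gene's strand. Capitals mark bases inside a FOXL2 peak in the Smad5 and Smad9 sequences. In the Smad6 sequence, which no peak touches, they mark the SMAD palindrome described below, and the Smad3 sequence, untouched as well, has none.
Smad5, first start, chr13:56702760-56703019, plus strand: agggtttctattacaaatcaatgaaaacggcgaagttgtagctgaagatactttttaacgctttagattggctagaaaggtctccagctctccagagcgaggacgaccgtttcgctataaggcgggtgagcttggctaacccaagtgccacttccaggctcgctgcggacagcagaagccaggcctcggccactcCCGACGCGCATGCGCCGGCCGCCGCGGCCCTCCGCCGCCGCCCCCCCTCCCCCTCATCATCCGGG
Smad5, last start, chr13:56703418-56703677, plus strand: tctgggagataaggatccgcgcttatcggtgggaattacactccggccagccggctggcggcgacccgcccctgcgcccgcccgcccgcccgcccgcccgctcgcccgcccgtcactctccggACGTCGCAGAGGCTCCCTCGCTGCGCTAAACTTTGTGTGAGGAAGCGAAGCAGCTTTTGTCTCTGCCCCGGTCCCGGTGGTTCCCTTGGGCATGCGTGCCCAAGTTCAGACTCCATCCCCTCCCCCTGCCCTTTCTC
Smad9, chr3:54755332-54755591, plus strand: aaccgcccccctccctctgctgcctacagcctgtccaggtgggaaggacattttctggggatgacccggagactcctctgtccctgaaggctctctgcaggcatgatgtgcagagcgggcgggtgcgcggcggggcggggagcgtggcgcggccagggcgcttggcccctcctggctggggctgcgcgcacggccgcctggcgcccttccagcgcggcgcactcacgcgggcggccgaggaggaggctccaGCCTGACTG
Smad6, chr9:64022050-64022309, minus strand: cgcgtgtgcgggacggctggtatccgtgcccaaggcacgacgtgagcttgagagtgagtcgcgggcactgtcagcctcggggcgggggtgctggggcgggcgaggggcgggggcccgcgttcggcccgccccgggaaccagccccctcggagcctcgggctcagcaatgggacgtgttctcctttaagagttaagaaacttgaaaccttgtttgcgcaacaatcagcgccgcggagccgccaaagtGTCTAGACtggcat
Smad3, chr9:63757985-63758244, minus strand: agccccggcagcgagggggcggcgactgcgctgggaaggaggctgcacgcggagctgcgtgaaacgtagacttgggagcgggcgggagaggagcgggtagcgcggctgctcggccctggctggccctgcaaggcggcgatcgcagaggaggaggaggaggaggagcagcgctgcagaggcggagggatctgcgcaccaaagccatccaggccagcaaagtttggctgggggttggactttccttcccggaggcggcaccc
The peaks covered 65 of the 260 bases at the first Smad5 start, 137 at the last and 9 at Smad9, where the peak began at the base after the start. The Smad1 sequence is not shown. Although Smad1 had a peak near its start, that peak lay farther inside the gene and covered 0 of the 260 bases, as at Smad6 and Smad3.

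All 8 SMAD genes had at least 1 peak in the gene or within 50 kb, and together they had 20. That window is wide: 67.5% of all protein-coding genes had a peak in it, and 78.2% of genes in the same length range. Smad1 had 4 peaks, Smad4, Smad5, Smad6 and Smad9 had 3 each, Smad7 had 2, and Smad2 and Smad3 had 1. At least 3 peaks were found in the windows of 20.7% of all genes and at least 4 in 8.56%. Of the 20 peaks, 7 lay within 1 kb of a border of the SMAD gene itself, 2 lay deeper inside it, 6 lay outside it but nearest to its own border, and 5 lay nearest to the border of another protein-coding gene. A peak centre lay inside the gene in 5 of 8 SMAD genes, against 36.2% of all genes and 51.0% of those in the length range. For 3 of 8, Smad3, Smad6 and Smad7, the window held a peak but none was inside the gene or at its start or border, as in 25.6% of all genes. Within 1 kb of a protein-coding border of any gene lay 12 of the 20 (60%) against 63.3% of all peaks. By class these were 12 of 15 peaks for the receptor-regulated and common genes and 0 of 5 for the inhibitory genes. Of these 12, 7 lay at the SMAD gene's own border and 5 at a neighbouring gene, so the contrast partly counts neighbours. All 5 were in windows of receptor-regulated genes.

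Among the BMP-branch SMADs, each of the 3 genes had a peak next to a listed start. Smad1 (chromosome 8, 79338395 to 79399428, minus strand) had a peak at 79399068 to 79399367, with its centre 211 bp downstream of the start. It also had 2 peaks deep inside the gene, at 79361189 to 79361488 and 79371696 to 79371995, which are 38.1 and 27.6 kb downstream of the start. Smad1 was the only SMAD gene with peaks over 1 kb inside its borders. Its 3 internal peaks compare with 0.781% of all protein-coding genes that had 3 or more, and with 0.808% in the SMAD genes' length range. Exon and intron borders were not used here, so these peaks are placed only inside the gene. The fourth peak of the Smad1 window lay 43.2 kb beyond the gene. It was 148 bp outside Mmaa, a gene of mitochondrial cobalamin metabolism, and 72 bp inside the long noncoding RNA gene Gm4890.

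Smad5 (chromosome 13, 56703010 to 56742378, plus strand) had 3 listed starts, at 56703010, 56703052 and 56703668. Its 2 start peaks, at 56702955 to 56703254 and 56703541 to 56703840, had centres 53 bp downstream of the second start and 23 bp downstream of the last. The peak centres were 586 bp apart. A further peak lay 10.9 kb beyond the gene and 552 bp inside the neighbouring gene Gm45623. Smad9 (chromosome 3, 54755455 to 54801662, plus strand) had a peak at 54755583 to 54755882, centred 151 bp downstream of its start. Smad9 lies among close neighbours, with 4 other protein-coding genes in its window, and its 2 other peaks sat at Exosc8, a subunit gene of the RNA exosome (526 bp downstream of the start), and at Rfxap, a gene for a regulator of MHC class II genes (109 bp from the border and 6.02 kb beyond Smad9).

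The activin and TGF-beta branch was split. Smad2 (chromosome 18, 76241090 to 76311748) had a single peak, at 76241313 to 76241612, 373 bp inside its lower-coordinate border. No other protein-coding gene lies in the Smad2 window, and no start was listed for the gene. Smad3 (chromosome 9, 63646766 to 63757994, minus strand), the family member known to work with FOXL2 at Fst, had no peak inside the gene and none within 10 kb. The single peak of its window lay 44.1 kb beyond the gene's end, 80 bp inside the border of Aagab and 64 bp downstream of a listed Aagab start. From the Smad3 start itself the nearest peak in either direction was 98.6 kb away, upstream, outside the 50 kb window, and 74.3% of all protein-coding genes had a nearer one. Smad3 is the longest gene of the family at 111 kb.

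The common SMAD gene, Smad4 (chromosome 18, 73634790 to 73703791), had 2 peaks at its higher-coordinate border and 1 outside the opposite border. The border peaks, at 73703008 to 73703307 and 73703622 to 73703921, had centres 634 and 20 bp inside the gene, 614 bp apart. The second of them was also 155 bp from the border of the long noncoding RNA gene 4930578L24Rik, which lies beside Smad4. The third, at 73622909 to 73623208, lay 11.7 kb outside the gene and had no nearer protein-coding border than that of Smad4. Which Smad4 border is the start was not determined here. Smad4 and Smad5 were the 2 SMAD genes with a pair of peaks within 1 kb of a start or border, which 3.28% of all protein-coding genes had and 5.54% of those in the length range. Such a pair was not among the measures planned in advance. Over the genome, centres of 5.27% of neighbouring peak pairs lay within 1 kb. With peaks within 500 bp of each other merged, the 20 SMAD peaks became 18, and the Smad4 pair and the Smad5 pair each counted as 1 peak. The shares of all genes with a pair were not recounted that way.

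The inhibitory SMAD genes had no peak inside the gene, and the nearest was 9.91 kb away. Smad6 (chromosome 9, 63953076 to 64022085, minus strand) had 3 peaks, all outside. On the side of its 3′ end they lay at 63941748 to 63942047 and 63927638 to 63927937, which are 11.2 and 25.3 kb beyond the gene. The first of these was inside the long noncoding RNA gene Gm36033, 2204 bp from its border. On the side of the start a peak lay at 64066953 to 64067252, 45.0 kb upstream of it. Smad7 (chromosome 18, 75367365 to 75395935) had 2, at 75405692 to 75405991 and 75342965 to 75343264, which are 9.91 kb above its higher-coordinate border and 24.3 kb below its lower one. All 5 peaks were nearest to the inhibitory SMAD gene among protein-coding borders, and 4 of the 5 were over 10 kb from any such border, as were 20.7% of all peaks.

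Of all protein-coding genes, 2.04% had at least 2 peaks within 50 kb with every one of them over 1 kb from every protein-coding border, the arrangement of both Smad6 and Smad7. This definition was made after their peaks were seen. Both genes stand in stretches with few protein-coding genes. The next protein-coding genes lie 195 kb (Smad3) and 95.0 kb (Lctl) from Smad6 and 80.4 kb (Dym) and 35.3 kb (Ctif) from Smad7, so their windows hold few or no other borders at which a peak could lie. The Smad2 window holds none either, and its peak lay at the Smad2 border. The part of these gaps in the arrangement was not tested.

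Ordered by the distance from a start, or a border where no start was listed, to the nearest peak centre, the SMAD genes ran from Smad4 (20 bp) and Smad5 (23 bp) through Smad9 (151 bp), Smad1 (211 bp) and Smad2 (373 bp) to Smad7 (9.91 kb), Smad6 (45.0 kb) and Smad3 (98.6 kb). The median over all protein-coding genes was 18.1 kb. The 2 nearest cannot be ordered by distances as small as 20 and 23 bp in peaks 300 bp wide, and nor can Smad9, Smad1 and Smad2 within one peak width of each other. No SMAD gene fell between 373 bp and 9.91 kb.

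**Figure D2:**
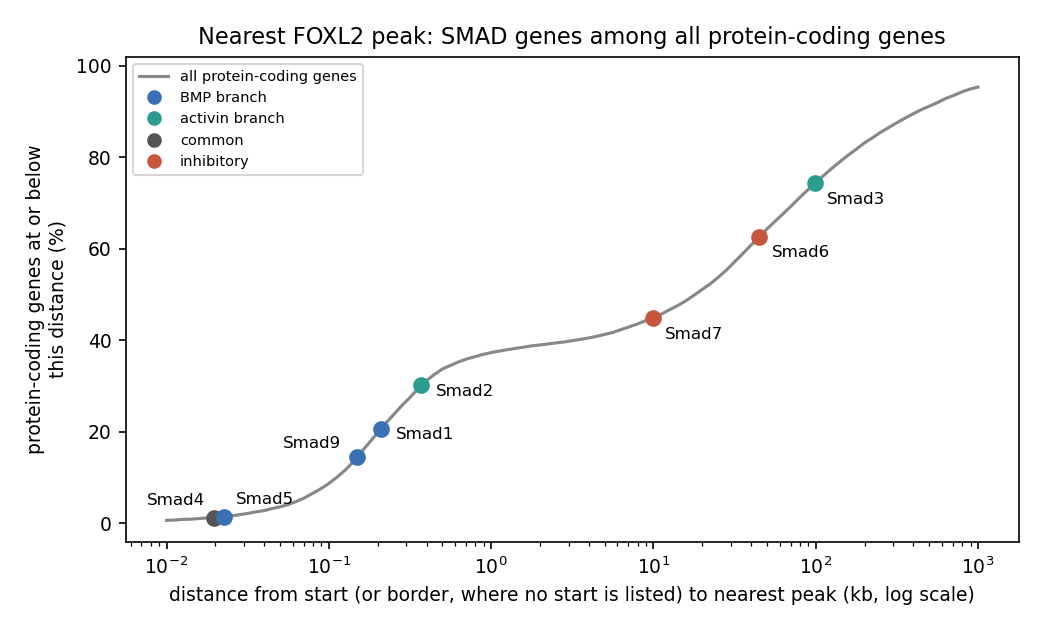
Distance in kb (log axis) from each gene's start, or border where none was listed, to its nearest FOXL2 peak, against the percent of all protein-coding genes at or below that distance (grey curve); coloured points are the SMAD genes by class. Smad4 and Smad5 lie at the low end of the curve. Smad9, Smad1 and Smad2 lie on its steep part, at 373 bp or less. Smad7, Smad6 and Smad3 lie beyond the flat part that follows, at 9.91 kb or more.

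Starts, not ends, of genes carried the border peaks. Among 13412 protein-coding genes of at least 5 kb with a listed strand, 40.9% had a peak within 1 kb of the 5′ border and 1.3% within 1 kb of the 3′ border. Smad1, Smad5 and Smad9 followed this arrangement, with peaks at the 5′ border and none at the 3′ border. The border peaks of Smad2 and Smad4 were likewise at a single border each.

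The listed starts of SMAD genes were rich in CpG whether or not they carried a peak. Smad2, Smad4 and Smad7 had no listed start and were not measured. CpG dinucleotides were counted in windows from 250 bases before to 50 bases after each of 21263 listed starts of protein-coding genes, relative to the number that the C and G content would give. With all windows divided by this ratio into 4 groups of equal number, the share with a peak within 1 kb was 1.35% in the lowest group, 17.2% and 55.5% in the next and 73.1% in the highest. Smad1 (ratio 1.06) and the 3 Smad5 starts (0.926 to 1.08) were in the highest group and Smad9 (0.762) in the third, all with a peak. Smad6 (0.952) was in the highest group and Smad3 (0.753) in the third, both without a peak. Most windows of these groups had one, so the Smad6 and Smad3 starts were in the minority of theirs. GC content ran from 63.0% at the first Smad5 start to 73.7% at Smad9, with 66.3% at Smad6 and 67.7% at Smad3, so both starts without a peak lay within the GC range of those with one. In the CpG ratio Smad6 did too, while Smad3 was just below Smad9, the lowest start with a peak.

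**Figure D3:**
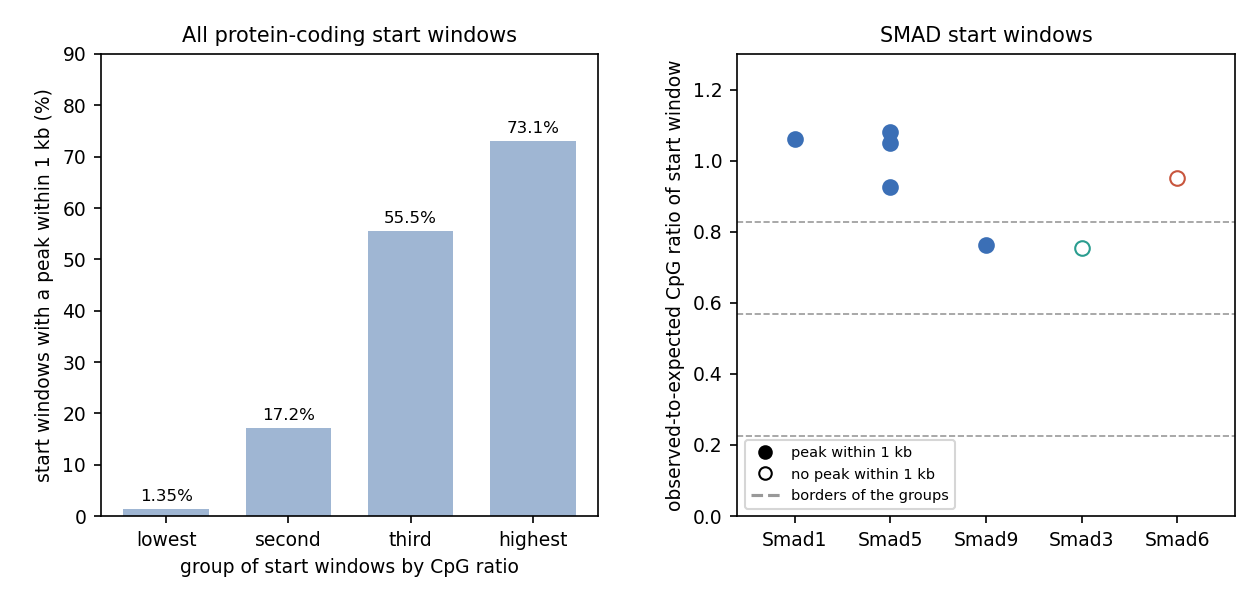
Left, percent of start windows of protein-coding genes with a FOXL2 peak within 1 kb, in 4 groups by the observed-to-expected CpG ratio, rising from 1.35% to 73.1%. Right, the ratio at each listed SMAD start, filled where a peak lies within 1 kb and open where none does; of the open points, Smad6 (0.952) lies within the range of the filled points and Smad3 (0.753) just below the lowest, Smad9 (0.762).

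The same 300-base windows were searched on both strands for forkhead and SMAD letters. The 7 SMAD windows came from 5 genes, with 3 windows from Smad5, and were 63.0 to 73.7% GC. The part of base composition in the counts of letters below was not tested. The forkhead letters GTAAACA, and the shorter TAAACA contained in them, were in none of the 7 SMAD windows, against 3.01% and 11.5% of all windows. Among windows with a peak within 1 kb they were no more frequent, at 2.7% and 7.95%. The SMAD box CAGAC was in 1 of the 7, 21 bases before the last Smad5 start and inside the peak there, against 48.4% of all windows and 44.5% of those with a peak within 1 kb. The GC-rich letters GGCGCC, which can bind SMADs as well, were in both overlapping windows of the first and second Smad5 starts, as a single site 19 bases before the second start, and in the Smad9 window 51 bases before the start. They were in 15.3% of all windows, in 26.3% of those with a peak within 1 kb, as these have, and in 8.97% of those without. The letters GGCGCC are all G and C and contain CG, and peaks were more frequent in windows with a higher CpG ratio. The part of base composition in this difference was not tested. The Smad6 window held the SMAD palindrome GTCTAGAC, 2 SMAD half-sites facing each other, beginning 4 bases before the start, and 0.226% of all windows held it. A match is a description of letters and not a binding site, and peak sequence outside these windows was not searched.

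Beyond the SMAD genes, the rest of the pathway was counted in 3 lists, by a peak in the gene or within 10 kb, which 49.6% of all protein-coding genes had. By that measure 4 of 5 receptor-regulated SMAD genes, Smad4, and 1 of 2 inhibitory SMAD genes (Smad7, at 9.91 kb) had a peak. At least 2 peaks lay there in 4 of the 8 SMAD genes (Smad1, Smad4, Smad5 and Smad9), against 14.8% of all genes, whatever their length. Of the Smad9 peaks, 1 was the peak at Rfxap. The same held for 10 of 34 genes of the pathway list, 17 of 35 partners and regulators and 3 of 23 targets, peaks at neighbouring genes included. The lists overlap by 3 genes, Fst, Bambi and Skil.

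Receptor genes were occupied in 11 of 13 cases (84.6%), and 9 of the 13 had a peak within 1 kb of a start or border, against 37.3% of all genes. Like Smad5, the genes Acvr1, Acvr1b, Acvr2a and Bmpr1a had 2 peaks within 1 kb of a start, while the Smad4 pair was at a border. Acvr1, a BMP type I receptor gene, had peaks 147 bp downstream and 428 bp upstream of a start, the activin type I receptor gene Acvr1b 424 bp downstream and 329 bp upstream, and the activin type II receptor gene Acvr2a 116 bp downstream and 403 bp upstream. Bmpr1a had a pair 451 bp downstream and 448 bp upstream of listed starts. Bmpr2 had peaks 503 and 1324 bp upstream, the second of them beyond 1 kb. Acvr2b had a peak 485 bp downstream of a start and another at the neighbouring gene Exog. Acvr1c and Amhr2, the receptor gene for anti-Müllerian hormone, had none within 10 kb. Within 50 kb Amhr2 had 3 and Acvr1c still 0.

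Ligand genes were occupied in 7 of 13 cases (53.8%), close to the share of all genes, with 4 of 13 at a start or border. Tgfb2 had 2 peaks, 511 and 1537 bp downstream of a start, and the 2 counted for Amh sat at Plekhj1 and Sf3a2. Of the ligand antagonists and anchors, 5 of 8 were occupied (62.5%), with 3 of 8 at a start or border. Nog, the BMP antagonist noggin, had 2 internal peaks at 188 and 955 bp from its border, and Ltbp1, which anchors latent TGF-beta in the matrix, had 2, of which 1 was 354 bp downstream of a start. Fst, where FOXL2 and SMAD3 are known to act together, had its peak 1604 bp inside the gene.

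Genes for SMAD partners and regulators were occupied in 30 of 35 cases (85.7%), against 49.6% of all genes. A peak at a start or border was found in 25 of the 35 (71.4%), against 37.3% of all genes. Of all genes 28.6 to 111 kb long, 52.0% had such a peak, and the median length in this list was 68.5 kb. Among the ubiquitin ligases and deubiquitinases, which set the amounts of SMADs and receptors, 10 of 11 were occupied. Nedd4l had 4 peaks, all inside the gene. Trim33, a ubiquitin ligase for SMAD4, and Usp9x, a deubiquitinase for it, each had 2 inside the gene, the nearer 90 and 264 bp from the border. Rnf111 and Usp4 had 1 each at a start and another at Ccnb2 and Gpx1. Of the corepressors 6 of 7 were occupied. Zeb1 and Zeb2, SMAD-binding repressors, had 2 and 3 peaks, Ski, which holds SMAD complexes inactive, had 2 outside the gene, and of the 2 peaks of Tgif2 the farther was at Rab5if.

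Coactivators and DNA-binding partners were occupied in 8 of 11 cases (72.7%), against 49.6% of all genes. Foxo1 had peaks 179 bp downstream and 413 bp upstream of a start, Runx1 had 2 inside the gene, Crebbp had 1 at its own start and another at Trap1, and Sp1 had 2 upstream of its start. Runx2 had 4 inside the gene, all nearest to a border of Supt3, which overlaps it. Foxl2 itself, Runx3 and Atf3 had none within 10 kb. Within 50 kb Foxl2 had 2, the nearer 17.7 kb from its start, and Runx3 and Atf3 had 1 each. All 4 anchor and phosphatase genes were occupied, with a pair at Ppm1a, the phosphatase gene for receptor-regulated SMADs, 542 bp downstream and 233 bp upstream of a start, and with both peaks of Hgs at other genes (Oxld1 and Mrpl12). Both importin genes were occupied, and of the 3 peaks of Ipo7 2 were at Zfp143.

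SMAD target genes, which include Smad6 and Smad7, were occupied in 10 of 23 cases (43.5%), near the 49.6% of all genes, and 6 of the 23 had a peak at a start or border (26.1% against 37.3%). Within 50 kb 16 of the 23 had a peak (69.6% against 67.5%). The shares at 10 and 50 kb were near those of all genes, and with 23 genes no difference in either direction can be read from them. Tsc22d3, which encodes the glucocorticoid-induced leucine zipper protein, had 3 peaks inside the gene, Msx2 had 1 at 200 bp downstream of a start and another 4465 bp outside the gene, and Junb had 1 at its start and another at Rnaseh2a. Of the BMP targets, Id4 had a peak 807 bp from its start and Id3 had one at 8.85 kb, while Id1 and Id2 had none within 10 kb. Gene length differed between the lists and bears on a count in gene windows: the median was 68.5 kb for partners and regulators, 89.2 kb for receptors, 7.37 kb for ligands and 6.73 kb for targets. Its part in the difference between the lists was not tested.

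**Figure D4:**
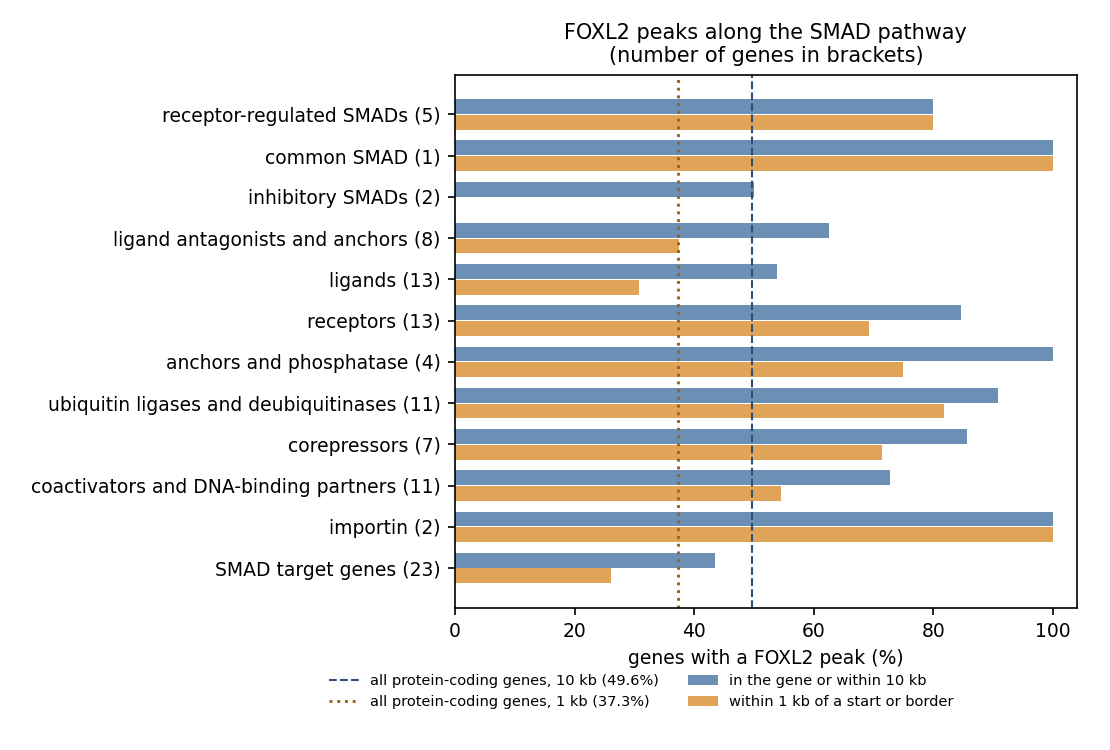
Percent of genes with a FOXL2 peak in the gene or within 10 kb (blue bars) and within 1 kb of a start or border (orange bars), for SMAD classes and for groups of pathway genes with their number in brackets. The vertical lines are all protein-coding genes, of any length, at 49.6% and 37.3%. Receptor genes and SMAD regulators stand above both lines in their counts, ligands stand near the lines, and SMAD target genes stand near the first line (43.5%) and at 26.1% for the second; within 50 kb, not drawn, 69.6% of the targets and 67.5% of all genes had a peak.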

How the data were processed

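FOXL2 ChIP and input chromatin of fetal ovaries was sequenced in 2 samples each. The deposited file, named in the labels of both ChIP samples, gives peak start and end positions in bp and no other value. Per the submitters' processing notes, Bowtie 1.2, Picard 1.110, bedtools 2.24.0, HOMER 4.9 and build mm10 were used. Their roles, the peak threshold and any pooling of replicates, which set how many peaks a gene can show, are not stated there.

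Starts were converted to 1-based positions and peak centres were used. Gene borders came from a RefSeq table of GRCm38.p6, and transcription starts, strands and sequences from a RefSeq promoter table that matched 5 of the 8 SMAD genes and 17492 of 21887 protein-coding genes. Where no start was listed, as for Smad2, Smad4 and Smad7, either gene border was used. A gene was counted by peaks inside it, within 1 kb of a start, or within 10 or 50 kb of the gene. The counting was tested on simulated data, and 200 of 200 planted peaks were recovered. Python 3.11.15 and pandas 2.3.3 were used.

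The SMAD genes, the 3 gene lists, and the rule that names list genes with 2 or more peaks within 10 kb, and Fst, were chosen with earlier results of these data known. Acvr1c, Amhr2, Foxl2, Runx3, Atf3 and the Id genes were named after their values were seen. Alternatives were other windows, the peak edge, merged peaks and nearest-border assignment.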

Additional observations from a re-analysis of the deposited data

How the results depend on the processing

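Of 32 alternatives, 27 left the count within 1.5 times of the value reported. That share does not measure robustness, because several settings could not change the count and the same genes at a start entered more than 1 result. Every SMAD gene kept a peak in a 100 kb window and with any base of a peak counted, settings that can only add peaks. In a 10 kb window 6 of 8 did so. The 5 genes with a peak within 1 kb of a start or border numbered 5 also at 500 bp, 2 kb and 5 kb and with either border. The 3 other distances could give no other count, since no SMAD gene had its nearest peak between 373 bp and 9.91 kb. With peaks near protein-coding borders left out, there was 1 SMAD gene with an internal peak (Smad1) in place of 5. A window of 10 kb left 11 of the 20 peaks. Merging peaks within 500 bp left 18, with the pairs at Smad4 and Smad5 each counted as 1 peak. Of the alternatives added after the data were examined, a 10 kb window gave 1 inhibitory SMAD gene with a peak in place of 0 at a start. The target list had 16 occupied genes in a 50 kb window (69.6%, against 67.5% of all genes) and 6 with a peak at a start or border, in place of 10. These changes follow from what each setting counts. Settings for a stricter peak threshold were not run because the list has no score. No paired analysis was possible because the peaks form 1 list with no value per replicate, and for the same reason no replicate could be left out. Depth is unknown, so a gene without a peak is not shown to be unbound.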

Other observations

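Between 50 and 100 kb from the SMAD genes lay 6 further peaks, which brought the total to 26. The nearest to the limit lay 50.3 kb from Smad4 and 418 bp from the border of Elac1, while the farthest peak inside the limit lay 45.0 kb from Smad6. A single peak on chromosome 9, at 63856463 to 63856762, lay between Smad3 and Smad6, 98.6 kb from the former and 96.5 kb from the latter, in a stretch with no protein-coding gene between them. It is the peak nearest to the Smad3 start. The others lay at Mex3c (822 bp from the border), at Supt20 (88 bp downstream of a start), deep inside Trpc7, 64.5 kb from Smad5, and inside the long noncoding RNA gene Scarletltr, 62.9 kb from Smad6.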
